A study of Mus musculus with 4 samples.

Results

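The forkhead (Fox) transcription factors share a DNA-binding domain of winged-helix fold and are grouped by a letter into subfamilies. They were taken as the protein-coding genes of GENCODE M21 whose symbol is Fox followed by 1 letter and a number, which gave 44 of 21938 protein-coding genes. The family was divided by letter. The 13 members of the Foxo, Foxk, Foxj and Foxn subfamilies formed the broadly expressed class, and the other 31 members formed the lineage-restricted class. The letters are only an approximate guide, since *Foxj1*, *Foxn1*, *Foxn4* and *Foxo6* act in particular tissues, and *Foxm1*, *Foxp1* and *Foxp4* are found in many.

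Chromatin accessibility was measured by ATAC-seq, in which the Tn5 transposase cuts and tags open DNA, in whole mouse hearts at embryonic day (E) 9.5. The hearts were wild type (WT) or came from *Smyd1-KO* embryos, which carry a conventional null allele of the muscle histone methyltransferase gene *Smyd1* and so lack it in every cell from conception. Each genotype had 2 libraries, and a library was made from 4 pooled hearts of embryos of either sex. Of the deposited peaks, each 149 bp wide, 25745 passed the authors' 2-fold cutoff towards *Smyd1-KO*, called gained peaks here, and 106 passed it towards WT. The score of a peak is the tag total that HOMER, the authors' peak caller, gave it over the combined libraries of the genotype for which it is listed. Gained scores fall on steps of 0.5 and WT-enriched scores on finer ones, so a score is not a whole count of reads, and how it was scaled is not given in the sources used here. It is a level in *Smyd1-KO* hearts for the gained peaks, not a size of change, and it has no replicate error. No test of the genotypes over replicates was possible, and since genes are not replicates, the classes were described by counts, medians and exact intervals without a test. A gene without a listed peak may have open chromatin that differed less than 2-fold, or none.

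Forkhead proteins read short AT-rich sites, and several, such as the Foxa proteins, can bind sites in closed chromatin. In the heart, *Foxc1* and *Foxc2* act in the second heart field, the outflow tract and the endothelium, *Foxh1* takes Nodal signals through SMAD2 to the anterior second heart field, and *Foxp1* acts in the cushions and in myocyte growth. The FOXO proteins restrain the cell cycle and drive stress genes, and are driven out of the nucleus when AKT phosphorylates them.

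Of the 44 members, 27 had a gained peak no more than 3 kb from a transcription start site (TSS), or 61.4% (exact 95% interval 45.5 to 75.6%). Among all protein-coding genes 51.2% had such a peak, a share inside that interval. In whole hearts, more cells of a type and more open chromatin per cell cannot be told apart. The broadly expressed members had one in 10 of 13 cases (76.9%, 46.2 to 95%) and the lineage-restricted members in 17 of 31 (54.8%, 36 to 72.7%). These intervals overlap each other, and both contain the share of all genes. No WT-enriched peak lay within 3 kb of any member, where 0.0228% of all genes had one. The WT-enriched peak nearest to any member was 579.9 kb from the TSS of *Foxc1*.

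The gained peaks with the highest scores are shown first for the broadly expressed members. All sequences are read 5′ to 3′ on the plus strand of mm10, with the SP1/KLF string GGGCGG (or CCGCCC) and the forkhead string TGTTTAC (or GTAAACA) in capitals. *Foxo6* and *Foxo3* are on the minus strand, and the peaks of *Foxo6*, *Foxo3* and *Foxn2* lie in intergenic sequence upstream of the gene. The *Foxo4* peak was added after its values were seen, because it is the only peak within 3 kb of a member that holds the forkhead string.
Foxo6, chr4:120287816-120287964: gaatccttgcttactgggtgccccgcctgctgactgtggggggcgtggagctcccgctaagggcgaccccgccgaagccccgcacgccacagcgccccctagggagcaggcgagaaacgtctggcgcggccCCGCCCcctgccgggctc
Foxo3, chr10:42277702-42277850: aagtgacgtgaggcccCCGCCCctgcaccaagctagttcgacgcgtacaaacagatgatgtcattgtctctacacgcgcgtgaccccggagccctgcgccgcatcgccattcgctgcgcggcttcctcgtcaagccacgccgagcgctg
Foxn2, chr17:88440455-88440603: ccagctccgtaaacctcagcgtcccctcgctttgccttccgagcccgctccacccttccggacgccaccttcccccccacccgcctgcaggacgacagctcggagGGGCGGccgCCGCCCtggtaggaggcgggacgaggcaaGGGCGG
Foxo4, chrX:101254119-101254267: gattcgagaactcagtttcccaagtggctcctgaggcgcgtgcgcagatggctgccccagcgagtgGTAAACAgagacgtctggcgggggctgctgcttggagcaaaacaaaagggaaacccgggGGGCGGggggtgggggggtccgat

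Next come the strongest peaks among the lineage-restricted members, cut to the stretch outside untranslated exons. Those assigned to *Foxh1* and *Foxa3* in fact cover TSSs of other genes, *Ppp1r16a* and *Sympk*, whereas the *Foxp4* stretch is its own promoter. *Foxc1*, *Foxd2* and *Foxe3* were added after their values were seen, as examples of a peak just upstream of the gene (*Foxc1* and *Foxd2*) and inside the coding sequence (*Foxe3*).
Foxh1, chr15:76671486-76671614: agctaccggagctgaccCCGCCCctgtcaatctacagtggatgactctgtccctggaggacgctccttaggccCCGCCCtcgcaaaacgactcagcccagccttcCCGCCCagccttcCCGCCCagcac
Foxa3, chr7:19024255-19024376: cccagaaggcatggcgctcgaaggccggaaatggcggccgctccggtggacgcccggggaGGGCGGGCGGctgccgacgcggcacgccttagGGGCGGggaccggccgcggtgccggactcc
Foxp4, chr17:47924646-47924734: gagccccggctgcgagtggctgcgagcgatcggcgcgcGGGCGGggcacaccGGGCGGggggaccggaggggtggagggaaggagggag
Foxc1, chr13:31806393-31806541: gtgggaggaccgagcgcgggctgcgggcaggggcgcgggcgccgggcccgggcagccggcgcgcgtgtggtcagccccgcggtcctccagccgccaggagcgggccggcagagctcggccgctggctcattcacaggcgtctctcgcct
Foxd2, chr4:114908894-114909042: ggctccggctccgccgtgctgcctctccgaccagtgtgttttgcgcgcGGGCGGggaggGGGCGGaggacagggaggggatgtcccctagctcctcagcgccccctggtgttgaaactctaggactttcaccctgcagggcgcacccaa
Foxe3, chr4:114925283-114925431: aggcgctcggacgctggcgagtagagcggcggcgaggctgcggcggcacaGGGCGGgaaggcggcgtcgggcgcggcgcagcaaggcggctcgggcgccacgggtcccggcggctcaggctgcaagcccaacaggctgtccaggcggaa

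All 4 Foxo genes had a gained peak, against 51.2% of all protein-coding genes. The 4 starts had a ratio of observed to expected CpG above 0.6, a range in which 77.4% of all genes had one. *Foxo6*, the family member known mainly from brain, had a single peak 467 bp upstream of its TSS with 759 tags. *Foxo3*, a regulator of quiescence, autophagy and stress resistance, had a peak of 753.5 tags 947 bp upstream and another of 595 tags over a TSS. *Foxo1*, which is needed for embryonic blood vessels, had a peak of 371.5 tags over its TSS (chr3:52268216-52268364) and a weaker peak of 188.5 tags in the coding part of its first exon, 485 bp downstream. *Foxo4*, on chromosome X, had 224 tags 261 bp upstream, the lowest of the 4 genes by strongest peak. The strongest peak was upstream of the start in *Foxo3*, *Foxo4* and *Foxo6* and covered it in *Foxo1*.

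The Foxk genes differed from each other. *Foxk1* and *Foxk2* encode close paralogues that repress autophagy genes and promote glycolytic genes. A gained peak of 531 tags covered the TSS and first coding bases of *Foxk1*, at chr5:142401399-142401547, and 4 more lay in its introns, of which the strongest had 743 tags and was 39065 bp from the nearest *Foxk1* TSS. *Foxk2* had no gained peak within 10 kb of a TSS or in the gene, and the nearest was 22790 bp upstream with 1250.5 tags. Its gene start was the richest in CpG of the family, with an observed to expected ratio of 1.285. The 150 bases before its start, on the plus strand and from the RefSeq window chr11:121259737-121260036 of GRCm38.p6 (the build of mm10), contain neither string and are printed for comparison with the gained promoters.
Foxk2: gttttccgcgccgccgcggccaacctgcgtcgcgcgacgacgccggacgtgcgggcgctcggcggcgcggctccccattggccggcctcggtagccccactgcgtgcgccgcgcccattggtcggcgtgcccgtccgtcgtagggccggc

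In the Foxj subfamily, *Foxj2* had a peak of 294 tags over a TSS and one of 416.5 tags in an intron, 96 bp from a downstream alternative TSS. *Foxj3* had 1 peak of 536 tags in an untranslated exon (chr4:119539819-119539967), 40 bp from a TSS. *Foxj1*, the master gene of motile cilia, had none within 10 kb, and its nearest was 12587 bp away with 95.5 tags.

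In the Foxn subfamily, *Foxn2* had peaks of 623 tags 108 bp upstream and 242 tags 799 bp inside the gene. *Foxn3*, a checkpoint-associated repressor, had 3 peaks within 3 kb. They held 492 and 359 tags over separate TSSs and 335 tags in an intron 870 bp downstream of a TSS. *Foxn4*, a factor of retinal and spinal interneuron progenitors, had 1 peak of only 120 tags 383 bp upstream. The thymic epithelial gene *Foxn1* had none near its TSS and 1 of 120 tags in an intron, 26231 bp inside. The broadly expressed members without a peak or with the lowest score were thus *Foxk2*, *Foxj1*, *Foxn1* and *Foxn4*. *Foxk2* is not among the 4 members of this class that act in particular tissues, whereas *Foxj1*, *Foxn1* and *Foxn4* are 3 of them. The fourth, *Foxo6*, had the highest score of the class.

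**Figure D1:**
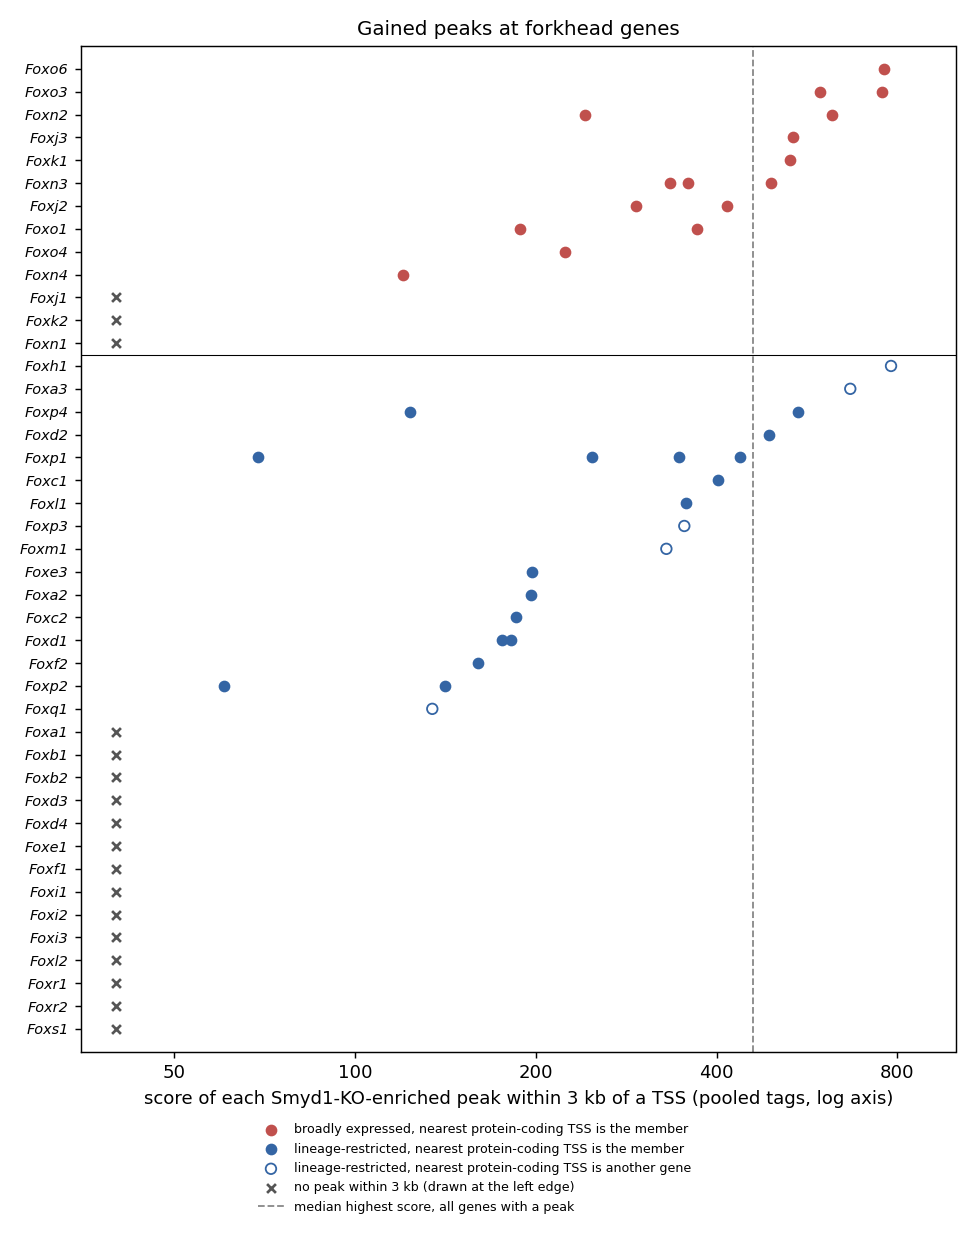
Score, on a log axis in pooled tags, of each gained peak within 3 kb of a TSS of each forkhead gene, with 1 lineage-restricted member not drawn and broadly expressed members above the line and lineage-restricted members under it. The highest score of a broadly expressed member had a median of 511.5 tags and that of a lineage-restricted member 330 tags. Open circles are peaks nearer to another gene, and crosses mark the 17 members without a peak.

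Among the lineage-restricted members, the Foxp subfamily had a gained peak at all 4 genes, against 51.2% of all protein-coding genes. These 4 genes have 7 to 22 annotated TSSs, and 74.7% of all genes with 5 or more TSSs had a peak. *Foxp1* had 4 peaks within 3 kb of its 22 annotated TSSs, with 437 tags (chr6:99028232-99028380) and 248.5 tags over TSSs, 347 tags 632 bp upstream and 69 tags in an intron. *Foxp4*, which acts with *Foxp1* and *Foxp2* in lung and heart, had 547.5 tags over a TSS and 123.5 tags in an intron 341 bp upstream of another TSS. *Foxp2*, known for its part in speech and motor circuits, had 141 tags 435 bp upstream and 60.5 tags in an intron, the lowest score of any peak within 3 kb of a member. *Foxp3*, the factor of regulatory T cells, was assigned a peak of 353.5 tags that covers a TSS of the neighbour *Ppp1r3f* and is 627 bp from a *Foxp3* TSS. The highest scores of the Foxp genes spanned from 141 tags for *Foxp2* to 547.5 tags for *Foxp4*.

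The long genes also differed inside. *Foxp1*, 597.4 kb long, had 12 gained peaks in the gene or 2.01 per 100 kb, and *Foxn3*, 373.5 kb long, had 8 or 2.14 per 100 kb. *Foxp2* is 540.6 kb long and had 1, or 0.185 per 100 kb. The median over 2492 protein-coding genes of at least 100 kb was 0.898 per 100 kb, with quartiles of 0.440 and 1.68. *Foxp1* and *Foxn3* were thus above the upper quartile and *Foxp2* below the lower one. The strongest *Foxp1* peak away from a TSS had 452.5 tags, slightly more than at any of its starts, and lay in an intron 37647 bp from the nearest TSS.

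The genes of the outflow tract and the mesenchyme came next, together with *Foxq1*, which is included as the neighbour of *Foxf2* and *Foxc1*. *Foxc1* had 402 tags 92 bp upstream of its single TSS. *Foxc2* had 185.5 tags 2577 bp upstream, and none nearer. *Foxf2*, a gene of gut, palate and vessel-wall mesenchyme, had 160 tags 30 bp downstream of its start. *Foxf1*, its paralogue in splanchnic mesoderm, had none within 3 kb, and its nearest peak had 149.5 tags and lay 8357 bp downstream in an untranslated exon of *Mthfsd*. *Foxl1*, a gene of gut mesenchyme, had 356 tags 2442 bp upstream. *Foxq1* was assigned 134.5 tags 1905 bp downstream of its start, nearer to a TSS of the overlapping gene *A530084C06Rik*. *Foxc1* was the only one of these 6 with its peak outside the gene and within 100 bp of the start.

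These genes stand in tandem groups. On chromosome 13, *Foxq1*, *Foxf2* and *Foxc1* lie within 256.3 kb, and the group with 20 kb to either side held 6 gained peaks, with scores from 46.5 to 402 tags. Those of 46.5, 134.5 and 213 tags were nearest to a TSS of *A530084C06Rik*. On chromosome 8, *Foxf1*, *Foxc2* and *Foxl1* lie within 46.3 kb, and 4 gained peaks with 149.5 to 356 tags were found there, none of which covered a forkhead TSS. Those of 149.5 and 281 tags lay in untranslated exons of *Mthfsd* and were nearest to a TSS of that gene. On chromosome 4, *Foxd2* and *Foxe3* lie within 19.7 kb with 3 peaks of 99 to 489.5 tags. In the group on chromosome 8 all 4 peaks lay between the forkhead genes, and in the other groups there were peaks inside or at the start of the forkhead genes.

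**Figure D2:**
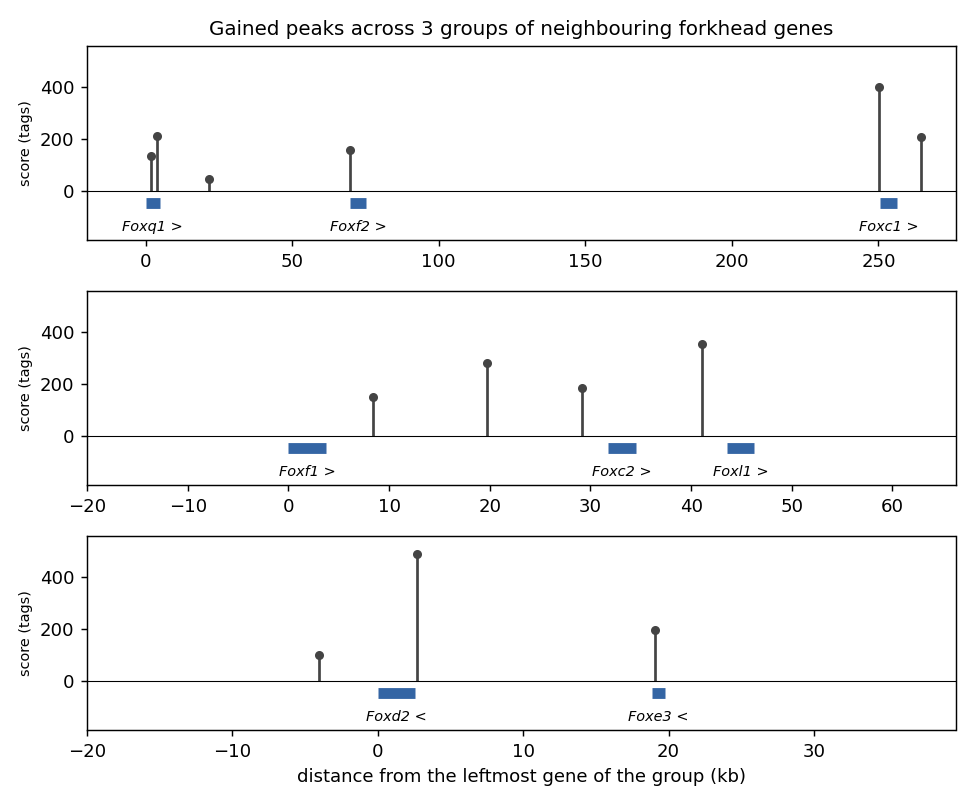
Gained peaks (grey stems, height is the score in pooled tags) across 3 groups of neighbouring forkhead genes (blue bars, arrow heads give the direction of transcription), against the distance in kb from the leftmost gene. The highest stems are those at *Foxc1* with 402 tags, upstream of *Foxl1* with 356 tags and at *Foxd2* with 489.5 tags.

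Among further members with a peak, *Foxd2* had 489.5 tags 21 bp upstream of its TSS. *Foxd1*, a marker of kidney stroma, had 182 and 176 tags 971 and 1555 bp into its single coding exon. *Foxe3*, a lens gene, had 197.5 tags inside its coding exon, 582 bp from the start. The endoderm gene *Foxa2* had 196.5 tags 1639 bp upstream. The peaks of *Foxd1*, *Foxe3* and *Foxa2* all scored between 176 and 197.5 tags and none covered a TSS.

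The peaks of the last 3 cover TSSs of neighbouring genes. *Foxh1* was assigned 781 tags, the highest score within 3 kb of any member, 1538 bp upstream and over a TSS of *Ppp1r16a*. *Foxa3*, an endoderm gene, was assigned 668 tags 717 bp upstream and over a TSS of *Sympk*. *Foxm1*, which drives genes of G2 and mitosis, had 330 tags 52 bp upstream (chr6:128362767-128362915), over a TSS of the divergent gene *Rhno1*, and position alone does not assign it to either gene. With *Foxp3* and *Foxq1* these are the 5 members for which every peak within 3 kb was nearer to the TSS of another protein-coding gene. All 5 were lineage-restricted.

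When only peaks nearest to the gene's own TSS were counted, the broadly expressed members stayed at 10 of 13 and the lineage-restricted members numbered 12 of 31, or 38.7%. Among all protein-coding genes 46.9% had a peak by this count. The median highest score of the lineage-restricted members changed from 330 to 214 tags by this count, which is more than a 1.5-fold shift, and it was also 214 tags when the 7 members named at the outset were moved to the other class. That reassignment gave a peak at 11 of 12 broadly expressed members (91.7%, exact interval 61.5 to 99.8%), all but *Foxk2*. It gave a peak at 16 of 32 lineage-restricted members (50%, 31.9 to 68.1%). The share of all genes within 3 kb, 51.2%, lay below the first interval and inside the second. The intervals overlapped each other and treat genes as independent. The part of TSS number or CpG content under this reassignment was not tested.

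The 17 members without a gained peak within 3 kb were *Foxj1*, *Foxk2* and *Foxn1* of the broadly expressed class and 14 lineage-restricted genes. The latter were *Foxa1*, *Foxb1*, *Foxb2*, *Foxd3*, *Foxd4*, *Foxe1*, *Foxf1*, *Foxi1*, *Foxi2*, *Foxi3*, *Foxl2*, *Foxr1*, *Foxr2* and *Foxs1*. Most are known from tissues outside the heart, such as *Foxd3* from neural crest, *Foxe1* from thyroid, *Foxi1* from ionocytes and *Foxl2* from ovary. So are several lineage-restricted members with a peak, among them *Foxa2*, *Foxd1* and *Foxe3*, so this trait does not set the members without a peak apart. No gene of the Foxb, Foxi, Foxr or Foxs subfamilies had a peak. Only *Foxf1*, *Foxi2* and *Foxi3* had one between 3 and 10 kb, with 149.5, 78 and 59.5 tags. The emptiest surroundings were those of *Foxb2* and *Foxl2*, whose nearest gained peaks were 289740 and 125444 bp away with 55 and 41.5 tags.

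At the median, peaks of the broadly expressed members lay nearer to the TSS than those of the lineage-restricted members. At 1 kb the broadly expressed members still numbered 10 of 13 with a peak, whereas the lineage-restricted members numbered 12 of 31 (38.7%, 21.8 to 57.8%). The share of all genes at 1 kb was 48.1%. At 10 kb the counts were 10 of 13 and 20 of 31 (64.5%, 45.4 to 80.8%), and 59.6% of all genes. The broadly expressed share was thus the same at each distance. With the classes set by letter, the intervals of both contained the share of all genes at 1, 3 and 10 kb. Of the members with a peak within 3 kb, a TSS was covered in 5 of 10 broadly expressed members but in 2 of 17 lineage-restricted members, *Foxp1* and *Foxp4*, against 54.3% of all genes with a peak. The median distance of the nearest peak was 20 bp in the broadly expressed members, 627 bp in the lineage-restricted members and 0 bp in all genes with a peak.

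**Figure D3:**
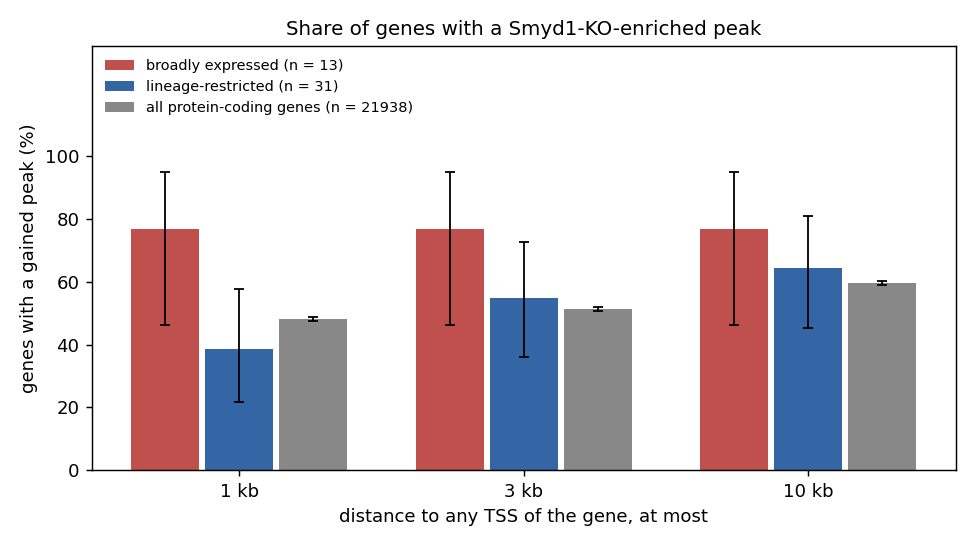
Share of genes, in percent, with a gained peak within 1, 3 or 10 kb of any TSS, for the 13 broadly expressed and 31 lineage-restricted forkhead genes and for all 21938 protein-coding genes. Error bars are exact 95% binomial intervals, which treat genes as independent. The broadly expressed share is 76.9% at every distance and the lineage-restricted share goes from 38.7 to 64.5%.

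The 39 gained peaks within 3 kb of a member were counted in the same way. Of the 16 at broadly expressed members, 6 covered a TSS, 6 were upstream and 4 downstream, and 3 lay over 500 bp away. Of the 23 at lineage-restricted members, 3 covered a TSS, 12 were upstream and 8 downstream, and 13 lay over 500 bp away. Each broadly expressed peak was nearest to the member itself, and 5 of the lineage-restricted peaks were nearest to another gene.

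**Figure D4:**
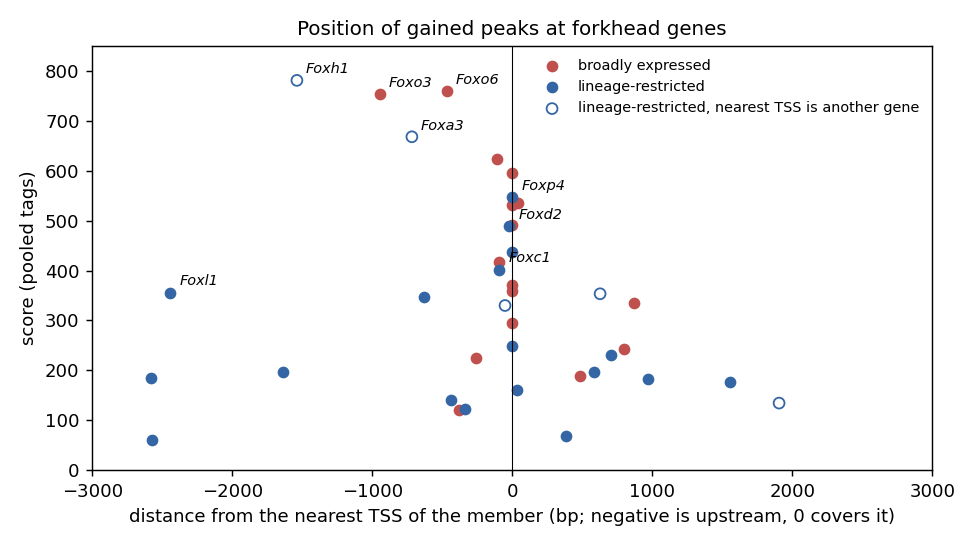
Score in pooled tags against the distance in bp from the nearest TSS of the member, for the 39 gained peaks at broadly expressed and lineage-restricted forkhead genes. The peaks beyond 1 kb are all lineage-restricted and, apart from the peak over the *Ppp1r16a* TSS that was assigned to *Foxh1* with 781 tags, score from 60.5 to 356 tags.

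Scores were higher at the median in the broadly expressed class, with ranges that overlapped. The highest score per member ranged from 120 to 759 tags in the broadly expressed class, with a median of 511.5, and from 134.5 to 781 tags in the lineage-restricted class, with a median of 330. The upper end of the latter, 781 and 668 tags, came from the peaks over TSSs of *Ppp1r16a* and *Sympk*. Among the 12 lineage-restricted members whose own TSS was the nearest, the highest score ranged from 141 to 547.5 tags with a median of 214, and *Foxo6*, *Foxo3* and *Foxn2* of the other class lay above that range. Over all 11236 protein-coding genes with a peak the median was 460.5 tags, with quartiles of 292 and 693. Of the peaks themselves, 1 of 16 at broadly expressed members and 7 of 23 at lineage-restricted members scored below 180.5 tags, the median of the gained list, against 17.2% of the 12520 gained peaks within 3 kb of any protein-coding TSS. More than 1 peak within 3 kb was found at 5 of 10 broadly expressed and 4 of 17 lineage-restricted members with a peak, and at 23.0% of all genes with a peak.

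Features that the division by letter did not use also differed. The median gene length was 49.82 kb in the broadly expressed class and 4.09 kb in the lineage-restricted class, and the median number of annotated TSSs was 3 and 1. The number of TSSs moves with the chance of a peak within 3 kb. Over all protein-coding genes it was 25.8% with 1 TSS, 44.7% with 2 to 4 and 74.7% with 5 or more. With a single TSS, 2 of 4 broadly expressed and 9 of 19 lineage-restricted members had a peak. With 2 to 4 the counts were 5 of 6 and 3 of 7, and with 5 or more they were 3 of 3 and 5 of 5. The part of TSS number in the difference between the classes was not tested.

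The median CpG content of both classes was above that of all genes. At the gene start, from 250 bases before to 50 after, the ratio of observed to expected CpG had a median of 0.827 in the broadly expressed members, 0.632 in the lineage-restricted members and 0.525 in all protein-coding genes. The share of all genes with a peak within 3 kb was 18.6% where the ratio was below 0.3, 48.4% from 0.3 to 0.6 and 77.4% above 0.6. Above 0.6 the broadly expressed members had a peak in 9 of 11 cases (81.8%, exact 95% interval 48.2 to 97.7%) and the lineage-restricted members in 10 of 18 (55.6%, 30.8 to 78.5%). From 0.3 to 0.6 the counts were 0 of 1 and 5 of 7 (71.4%, 29 to 96.3%), and below 0.3 they were 1 of 1 and 2 of 6 (33.3%, 4.33 to 77.7%). These intervals contained the share of all genes in the same CpG range. When only peaks nearest to the gene's own TSS were counted, the lineage-restricted members above 0.6 numbered 8 of 18 (44.4%, 21.5 to 69.2%), against 70.7% of all genes, a share just outside that interval. By this count they numbered 4 of 7 (57.1%, 18.4 to 90.1%) from 0.3 to 0.6, against 44.8% of all genes. Below 0.3 they numbered 0 of 6 (0 to 45.9%), against 16.8%, since the peaks of *Foxh1* and *Foxq1* were nearer to other genes. The broadly expressed counts were the same by either rule. These intervals treat genes as independent and were not adjusted for the number of ranges. The CpG-rich lineage-restricted members without a peak were *Foxb1*, *Foxd3*, *Foxd4*, *Foxe1*, *Foxf1*, *Foxi3*, *Foxl2* and *Foxr1*. Within the lineage-restricted class the median ratio was 0.619 in members with a peak and 0.644 in those without. Over all genes these medians were 0.735 and 0.252.

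**Figure D5:**
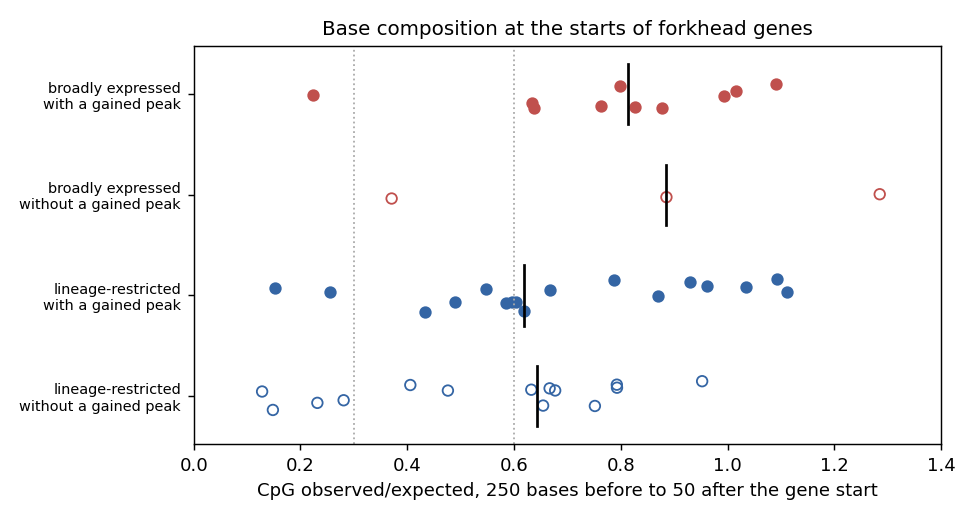
Ratio of observed to expected CpG from 250 bases before to 50 after the gene start, for forkhead genes of each class with (filled) and without (open) a gained peak within 3 kb. Black bars are medians, dotted lines mark 0.3 and 0.6, and vertical scatter within a row has no meaning. The medians of the lineage-restricted rows, 0.619 and 0.644, nearly coincide.

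The sequence of the 39 peaks was examined for 4 fixed strings on both strands, with a peak counted once. GGGCGG, the core of SP1 and KLF sites, was found in 24 (61.5%), against 50.4% of gained peaks near protein-coding TSSs and 29.1% of all gained peaks. Copies can overlap, as in the peak assigned to *Foxa3*. It was in 11 of 16 broadly expressed and 13 of 23 lineage-restricted member peaks. The forkhead string TGTTTAC was found in 1 peak, that of *Foxo4*, against 1.04% and 1.44% in the reference sets, and in the 300 bases around the gene start of 0 of 44 members, against 3.05% of all genes. The GATA string AGATAA was in 0 of 39 peaks, against 2.76% of gained peaks near protein-coding TSSs and 8.87% of all, and the NRF1 palindrome was in 0, against 0.935% and 0.486%. The strings do not overlap one another. The median GC content of the peaks was 73.5% in the broadly expressed and 68.5% in the lineage-restricted class, against 65.8% near protein-coding TSSs in general.

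Genes that act with the family were counted too, from lists compiled by hand, whose share is to be read against the 51.2% of all genes. All 12 listed regulators of the FOXO proteins had a gained peak within 3 kb. The export receptor gene *Xpo1* had the highest score at 1443 tags, the kinase gene *Pdpk1* had 974, and *Akt1* had the lowest at 134.5 tags, 1226 bp from its TSS, while *Akt2* had 612. Of 10 known FOXO targets, 9 had one, among them the DNA damage gene *Gadd45a* with 1198 tags, the mitochondrial superoxide dismutase gene *Sod2* with 1155.5 and the pro-apoptotic *Bcl2l11* with 997.5. The kinase gene *Pdk4* had none. All 6 FOXM1 targets had one, from 326.5 tags at *Cdc25b* to 978.5 at *Cenpf*. All 6 partners of forkhead proteins had one, from 400.5 tags at *Bap1* to 1258.5 at the corepressor gene *Sin3a*. Of 8 genes in the FOXC and FOXF programmes, 5 had one. These were *Hey2* with 924.5 tags, *Ptch1* with 904.5, *Gli1* with 237.5, *Tbx1* with 217 and *Cxcr4* with 207.5, whereas *Bmp4*, *Dll4* and *Kdr* had none.

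The labelled tissue was checked in the same way with short lists of marker genes. Gained peaks were found within 3 kb at 7 of 8 cardiomyocyte genes, with *Nkx2-5* the exception, against 51.2% of all protein-coding genes. They were found at 2 of 6 endocardial and endothelial, 1 of 6 blood and 2 of 4 epicardial genes. The counts were 1 of 4 for smooth muscle and neural crest and 0 of 4 for liver and gut genes. Such a list gives gains only and does not show which cell types were present. *Smyd1* had no gained peak within 3 kb and no WT-enriched peak in the gene, so the targeted gene does not check the labels.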

How the data were processed

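The data are 2 deposited lists of ATAC-seq peaks from 4 libraries, 2 of WT and 2 of *Smyd1-KO* E9.5 hearts. Per the labels and the study's methods, 40000 viable cells per pool entered the assay, libraries were sequenced to the same planned depth, and reads were aligned to mm10 with BWA-MEM (version not given in the sources used here). The authors called peaks with HOMER 4.10.3. The header of the study's peak table names combined tag directories for each genotype, a cutoff of 2-fold in tags and a Poisson p-value cutoff between the combined libraries. The deposited value per peak is a signal, HOMER's tag total over the combined libraries of the listed genotype. It lies on steps of 0.5 in the *Smyd1-KO* list and is not a raw count, and its scaling is not given in the sources used here. Handling of duplicates, reads with several positions and the Tn5 offset is not stated and could change which peaks are listed. The depth per library is unknown from the lists.

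Genes and TSSs came from the full GENCODE M21 annotation, leaving out the mitochondrial genome. Distances ran from the nearer edge of a peak to the nearest TSS of any transcript and were 0 where the peak covered it. A negative sign or the word upstream refers to that TSS. Coordinates count from 1, and all peaks lay inside the GRCm38 chromosomes. Exact intervals are Clopper-Pearson and cover counting error only. Peak assignment was tested on simulated data, with 200 peaks planted among 21938 genes on both sides of the 3 kb limit. All 200 were handled as placed, those within 3 kb being assigned and those beyond it left unassigned. The test compared distances without their sign, so it did not check upstream against downstream. Python 3.11.15, pandas 2.3.3, SciPy 1.17.1 and pysam 0.24.0 were used. Of the members, 28 of 44 were in the RefSeq promoter table.

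The members, classes and lists were chosen with earlier results of these data known. Every member was accounted for, and values were given for each member with a gained peak within 3 kb, except 1 lineage-restricted member that enters the counts and medians but is not reported here by name. Sequences were printed for the strongest peak of the 3 highest members of each class, and others are named as later choices. Alternatives changed the distance, the TSS set, the score minimum, the reference point of a peak, the assignment to the nearest gene, the class of 7 members, soft-masked sequence and the X chromosome.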

Additional observations from a re-analysis of the deposited data

How the results depend on the processing

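The count of members with a gained peak ranged from 20 to 30 around the main 27. It was 22 at 1 kb (50%), 30 at 10 kb (68.2%), 23 with scores at or above the list median (52.3%) and 22 with the nearest gene required (50%). In these settings the share of all genes was 48.1, 59.6, 45.4 and 46.9%. The members numbered 20 with at most 10% soft-masked bases (45.5%, against 41% of all genes). On autosomes they numbered 25 of 41 (61%, against 52.4% of all autosomal genes). The count stayed at 27 (61.4%) from the peak centre, with the 5′ end of the gene alone or with TSSs of protein-coding transcripts alone. The share of all genes there was 51.1, 47 and 49.6%, against 51.2% in the main setting. The broadly expressed count ranged from 7 to 11 (main 10) and the lineage-restricted count from 12 to 20 (main 17). The count of 11 was out of 12, with single members moved between classes (91.7%, exact interval 61.5 to 99.8%). That interval lay above the 51.2% of all genes. In the setting without soft-masked peaks, 7 of 13 and 13 of 31 remained, shares of 53.8% and 41.9% against 41% of all genes. The median highest score ranged from 451.25 to 536 tags in the broadly expressed class and from 214 to 354.75 tags in the other, and was higher in the broadly expressed class under each of these settings. Merging peaks over gaps of up to 1 kb left 34 regions of 39 peaks. No paired analysis was possible because the lists hold combined libraries, and for the same reason no library could be left out. A gene with a low tag count could not reach the list, so the absence of a peak is limited by depth.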
